A study of Mus musculus with 7 samples.

Results

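The Hox genes of the mouse lie in 4 clusters, and all rows of the deposited table whose symbol was Hoxa, Hoxb, Hoxc or Hoxd followed by a number were taken. That gave 39 of the 35976 gene symbols measured. Of these, 11 belonged to the Hoxa cluster, 10 to Hoxb, 9 to Hoxc and 9 to Hoxd, so every gene is placed by a cluster letter and a paralogue number. The RNA came from whole adrenals of the inbred mouse strain C57BL/6J, with no genetic or drug intervention named. Each library came from 1 pool of glands. Embryos at E18.5, shortly before birth, gave a pool of 40 glands whose sex was not determined, and postnatal day 1 (P1) gave 16 male and 22 female glands. Mice of 2 weeks gave 6 glands per sex and mice of 12 weeks 4 glands per sex. No group had a second pool. P-values therefore come only from additive models over the 6 postnatal pools, in which the pools of the other sex stand in for replicates, and they measure the spread between these pools.

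Hox genes encode homeodomain transcription factors that give cells of the embryo their position along the head-to-tail axis. Within a cluster, genes with low paralogue numbers are switched on earlier and further forward, and genes with high numbers later and nearer the tail. Genes with the same number in different clusters descend from 1 ancestral gene and often act redundantly. The adrenal cortex arises from intermediate mesoderm of the trunk beside the future kidney and gonad, and complexes of Hox proteins with homeodomain cofactors are known to bind a fetal adrenal enhancer of Nr5a1, the master regulator of steroidogenic cells.

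Each library held between 15184210 and 23551289 reads in genes, and 1 read was worth 0.818 to 1.40 normalized counts. Markers of the gland were present throughout, since none of 8 cortical and 8 chromaffin genes was at 0 in any library. The library labelled P1 female held 1273 normalized counts over 4 Y-linked genes, against 6135 in P1 male and 4.41 and 2.26 in the 2-week and 12-week female pools. Markers of neighbouring tissue were also present in the E18.5 and P1 pools. The sum of 10 kidney genes was 1342 at E18.5, 9352 in P1 male and 2548 in P1 female, and 33.6 to 69.4 in the 4 later pools. The sum of 6 skeletal muscle genes was 38225, 76444 and 139270 in the 3 early pools and 47.5 to 4846 later. Liver genes (270670, 339940 and 223500, then 387 to 31716) and 6 exocrine pancreas genes (25.2, 5863 and 96.0, then 1.40 to 2.67) followed the same division. Fat went the other way, as the sum of 5 adipocyte genes was 2881 to 3002 in the early pools and 25376 to 45114 later.

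Of the 39 Hox genes, 30 averaged 10 or more normalized counts across the 7 libraries and entered the tests, and 9 did not. Hoxa13, Hoxb1, Hoxb13, Hoxc12 and Hoxc13 had no read in any library. Hoxc11, Hoxd1, Hoxd12 and Hoxd13 had a few reads in the E18.5 or P1 pools only, the highest being 4 reads of Hoxd12 at E18.5. The remaining genes formed a continuous block in each cluster, which the map of the clusters shows. In all 3 early pools the block over 3 reads, the floor used for detection, ran up to Hoxa11, Hoxb9, Hoxc10 and Hoxd11. In all 4 later pools it ended at Hoxa9, Hoxb9, Hoxc8 and Hoxd9, and 23 genes were over the floor in all 7 pools. The genes of lowest number, Hoxb1 and Hoxd1, were at or under the floor throughout.

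**Figure D1:**
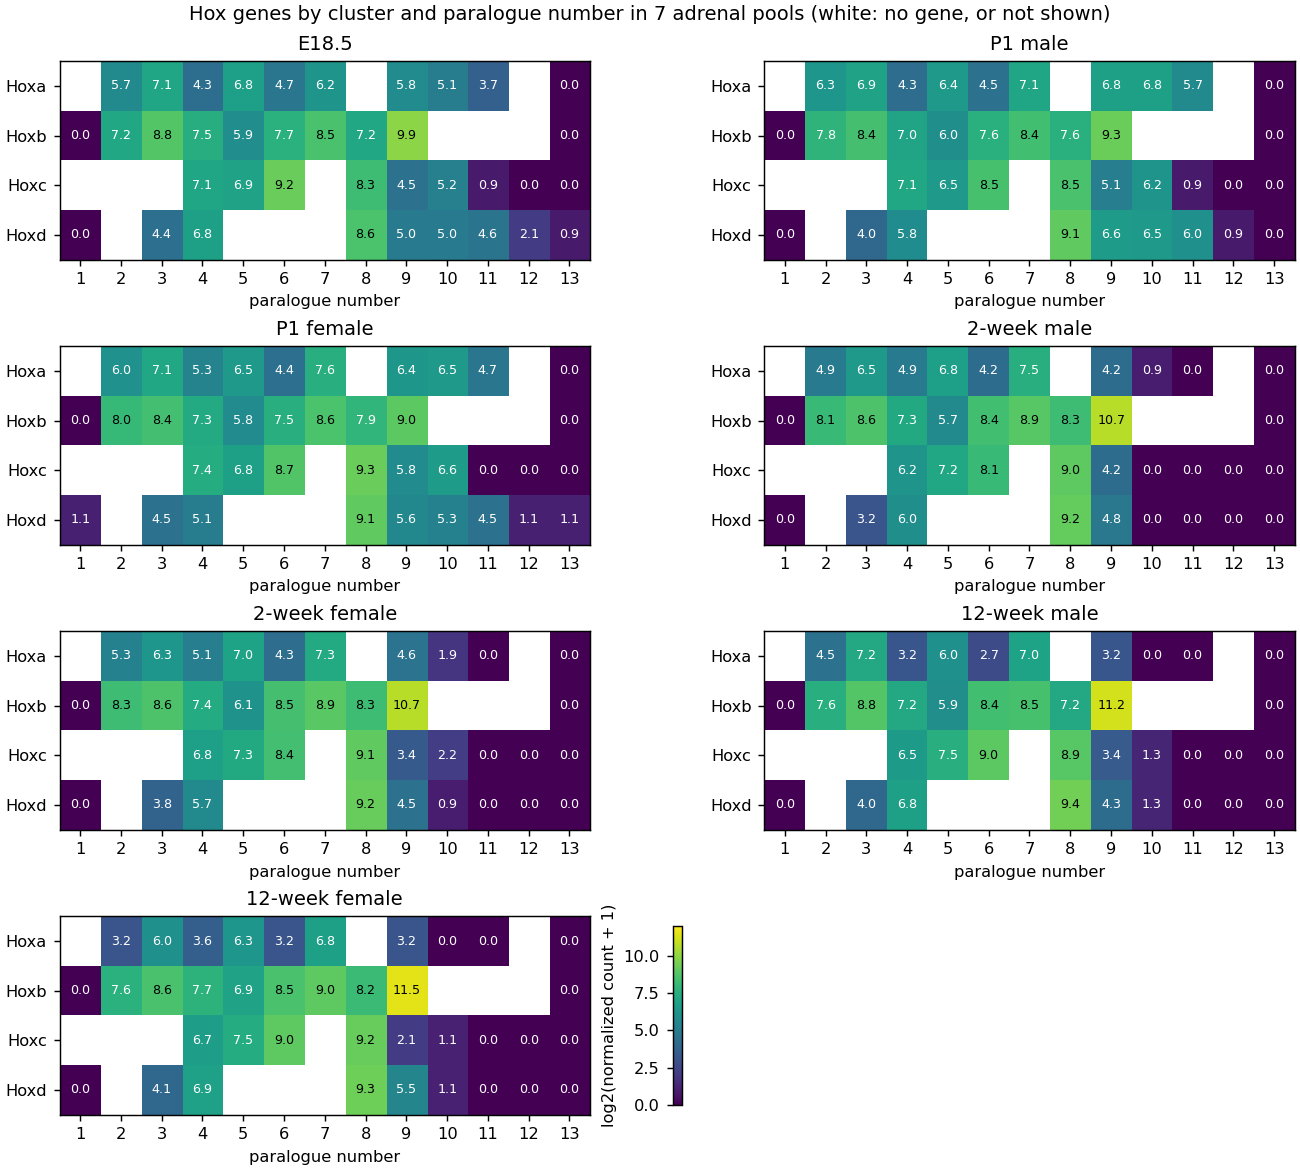
Each panel is 1 adrenal pool, with clusters in rows and paralogue numbers in columns, and each cell gives log2(normalized count + 1). Cells of paralogues 10 and 11 are coloured at E18.5 and P1 and near 0 at 2 and 12 weeks, while Hoxb9 is the brightest cell of every panel from 2 weeks on.

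Levels of different genes were compared per kb of transcript. By the mean over the 7 pools, the order was Hoxb9 (592 normalized counts per kb), Hoxb7 (324), Hoxc6 (274), Hoxc8 (261), Hoxd8 (215), Hoxb6 (211), Hoxb2 (140), Hoxb3 (123), Hoxb8 (88.6) and Hoxa7 (69.0). This order held for the mean and not in each pool. Hoxb9 was highest per kb in the 4 later pools, but Hoxc6 was highest at E18.5 (384 against 378 for Hoxb9), Hoxb7 in P1 male (257 against 244) and Hoxc8 in P1 female (329 against 196), where Hoxb7, Hoxc6 and Hoxd8 were also above Hoxb9. Genes of the Hoxb cluster took 42.8 to 50.1% of the summed Hox level per kb at E18.5 and P1, and 60.8 to 65.3% at 2 and 12 weeks. Hoxb9 alone made up 7.79 to 15.7% of the summed Hox level in the early pools and 22.1 to 31.7% in the later ones. Without Hoxb9, the share of the cluster was above that of the early pools at 2 weeks and below it at 12 weeks. The Hoxa cluster held 10.7 to 14.7% in the early pools and 4.24 to 8.72% in the later ones. Hoxc held 19.6 to 31.7% and Hoxd 8.72 to 16.3% over all pools. Central genes, numbers 4 to 8, made up 58.5 to 69.2% in each of the 7 pools.

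Hoxb9, which helps to pattern the thoracic ribs, had the highest mean level of the Hox genes and the widest range among the 14 genes with a mean of at least 100, its highest value being 5.69 times its lowest. It is encoded at chr11:96271457-96276595 (+ strand, GRCm38). It had 972 normalized counts at E18.5, 628 and 503 in the P1 male and P1 female pools, 1691 and 1682 in the 2-week male and female pools, and 2325 and 2865 in the 12-week pools. The 3 ages after birth did not overlap, and both P1 pools were below E18.5. From P1 to 2 weeks Hoxb9 rose 3.0-fold, a log2 change of 1.58 ± 0.18 (SE) with a limma Benjamini-Hochberg adjusted p of 0.00458. From P1 to 12 weeks it rose 4.59-fold (log2 2.20 ± 0.18, limma adjusted p = 0.00038). The step from 2 to 12 weeks was 0.61 ± 0.18 with a limma adjusted p of 0.0700 and was therefore not called. Because glands were measured whole, more cells that make Hoxb9 and more Hoxb9 RNA in each cell cannot be told apart, and the same holds for every change given here.

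As a share of all Hox RNA per kb, Hoxb9 went from 15.7% at E18.5 to 10.3 and 7.79% in the P1 male and female pools, 23.3 and 22.1% at 2 weeks and 29.9 and 31.7% at 12 weeks. Within paralogue group 9, which also holds Hoxa9, Hoxc9 and Hoxd9, it made up 90.3% at E18.5, 72.3 and 73.4% at P1, and 96.3 to 98.3% later. The sum of all 39 Hox genes was 4882 normalized counts at E18.5, 4791 and 5030 at P1, 5876 and 6093 at 2 weeks, and 6487 and 7460 at 12 weeks. Without Hoxb9 that sum was 3910 to 4527 in the early pools and 4162 to 4596 in the later ones. The summed level of 8 cortical marker genes had its lowest values in the P1 pools too (377950 and 249660, against 540240 at E18.5, 512280 and 516450 at 2 weeks and 842120 and 1120900 at 12 weeks). Star, Hsd3b1, Cyp11b2, Nr5a1 and Mc2r each had their lowest values in the P1 pools. Cyp11a1, Cyp21a1 and Cyp11b1 were lowest in P1 female, but were higher in P1 male than in both 2-week pools. The part of cortical or adipocyte RNA in the Hoxb9 values was not tested.

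**Figure D2:**
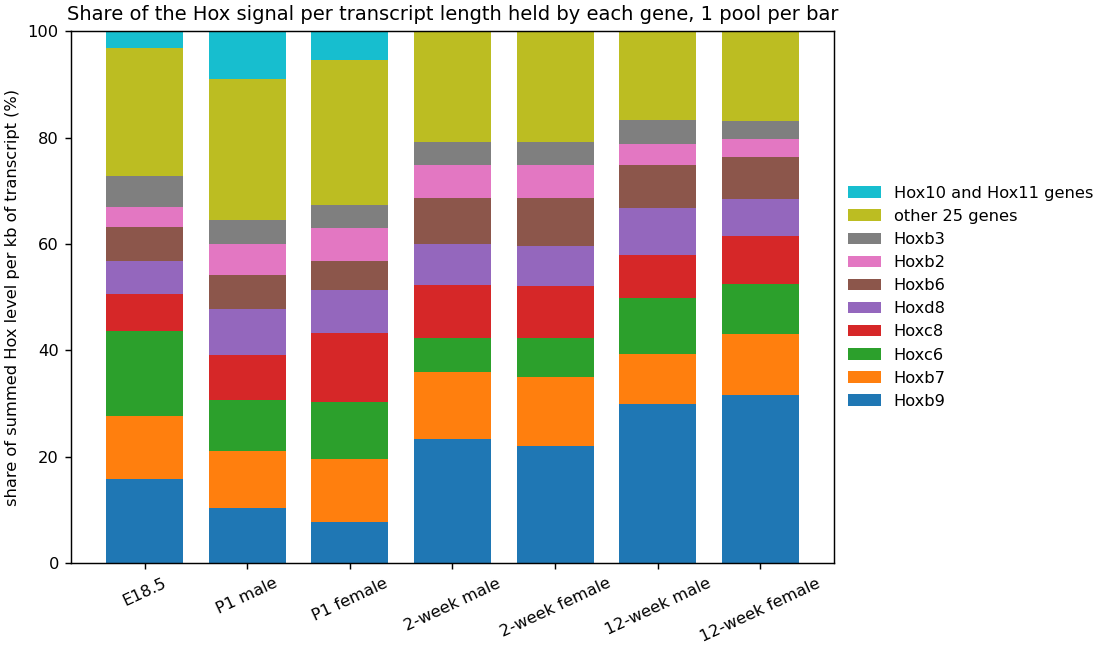
Stacked bars give the share (%) of the summed Hox level per kb of transcript held by the 8 highest genes, by the Hox10 and Hox11 genes and by the other 25 members, with 1 bar per pool. The Hoxb9 segment covers 7.79 to 15.7% of the 3 early bars and 22.1 to 31.7% of the 4 later ones.

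The genes with the highest paralogue numbers that were detected had their highest levels in the early pools. These were Hoxa10, Hoxa11, Hoxc10, Hoxd10 and Hoxd11, members of groups that pattern the lumbar and sacral axis, the limbs and the genital tract. The Hox11 genes are also required for the kidney to form. Together with Hoxc11, which had 1 read in each of 2 pools, they summed to 162 reads at E18.5 and to 475 and 246 in the P1 male and female pools, but to 1, 8, 2 and 2 reads in the 2-week male, 2-week female, 12-week male and 12-week female pools. Hoxa10 had 32.8, 110 and 88.3 normalized counts in the early pools, then 0.89 and 2.65 at 2 weeks and none at 12 weeks. Hoxc10 had 37.0, 73.6 and 98.2, then at most 3.53. Hoxd10 had 30.2, 86.7 and 37.5, then at most 1.40. Hoxa11 (11.8, 52.4 and 25.4) and Hoxd11 (23.5, 64.6 and 22.1) had no read in any later pool. For each of the 5 genes every early pool was above every later pool.

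The start regions of Hoxa10, Hoxa11, Hoxd10 and Hoxd11 are shown because these genes moved together, with both RefSeq starts of Hoxa10 and Hoxd11, beside that of Hoxd8, a gene of the same Hoxd cluster that stayed high. Windows run from 250 bases before to 50 bases after the RefSeq start (GRCm38.p6) and are written 5′ to 3′ on the gene's strand. Capitals mark matches on either strand to 4 motifs. CCAAT is the CCAAT box. The letters of the TATA box searched were TATAAA. The composite of Pbx and Hox half-sites was TGATNNAT. The core of Cdx and posterior Hox sites was TTTATNG, and none of the windows shown held it.
Hoxa10, chr6:52234890-52235189 (−): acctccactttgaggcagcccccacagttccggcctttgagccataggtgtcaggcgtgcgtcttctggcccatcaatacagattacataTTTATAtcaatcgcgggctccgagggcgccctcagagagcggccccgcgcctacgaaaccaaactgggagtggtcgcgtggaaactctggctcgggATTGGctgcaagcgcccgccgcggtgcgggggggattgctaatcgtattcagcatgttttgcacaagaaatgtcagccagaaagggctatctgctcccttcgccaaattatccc
Hoxa10, chr6:52240805-52241104 (−): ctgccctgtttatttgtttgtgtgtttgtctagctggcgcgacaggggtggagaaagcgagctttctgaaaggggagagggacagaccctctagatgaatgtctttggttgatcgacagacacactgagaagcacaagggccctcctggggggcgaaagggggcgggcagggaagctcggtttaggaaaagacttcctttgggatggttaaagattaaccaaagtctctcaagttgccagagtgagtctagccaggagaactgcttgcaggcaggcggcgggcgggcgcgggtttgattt
Hoxa11, chr6:52245761-52246060 (−): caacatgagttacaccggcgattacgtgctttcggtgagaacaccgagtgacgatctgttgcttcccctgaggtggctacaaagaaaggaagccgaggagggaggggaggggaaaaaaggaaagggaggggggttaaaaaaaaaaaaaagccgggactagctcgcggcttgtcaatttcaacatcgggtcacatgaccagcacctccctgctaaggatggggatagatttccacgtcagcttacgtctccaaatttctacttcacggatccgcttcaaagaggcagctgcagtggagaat
Hoxd10, chr2:74691641-74691940 (+): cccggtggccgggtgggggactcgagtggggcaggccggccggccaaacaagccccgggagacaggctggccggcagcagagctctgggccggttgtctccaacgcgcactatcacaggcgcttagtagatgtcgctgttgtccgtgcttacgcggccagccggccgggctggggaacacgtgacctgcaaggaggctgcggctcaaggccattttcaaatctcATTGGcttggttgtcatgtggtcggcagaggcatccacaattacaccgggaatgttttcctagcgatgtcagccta
Hoxd11, chr2:74679308-74679607 (+): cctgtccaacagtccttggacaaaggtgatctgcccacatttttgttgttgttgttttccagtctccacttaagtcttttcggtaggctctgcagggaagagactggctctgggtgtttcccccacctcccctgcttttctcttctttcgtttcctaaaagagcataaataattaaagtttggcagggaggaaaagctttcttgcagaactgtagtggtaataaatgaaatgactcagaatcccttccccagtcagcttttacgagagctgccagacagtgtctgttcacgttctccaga
Hoxd11, chr2:74682073-74682372 (+): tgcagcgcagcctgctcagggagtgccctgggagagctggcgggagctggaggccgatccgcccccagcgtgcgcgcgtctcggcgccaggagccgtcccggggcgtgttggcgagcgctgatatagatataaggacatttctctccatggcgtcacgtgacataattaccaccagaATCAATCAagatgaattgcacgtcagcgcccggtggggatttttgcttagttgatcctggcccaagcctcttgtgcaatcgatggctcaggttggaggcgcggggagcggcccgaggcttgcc
Hoxd8, chr2:74704365-74704664 (+): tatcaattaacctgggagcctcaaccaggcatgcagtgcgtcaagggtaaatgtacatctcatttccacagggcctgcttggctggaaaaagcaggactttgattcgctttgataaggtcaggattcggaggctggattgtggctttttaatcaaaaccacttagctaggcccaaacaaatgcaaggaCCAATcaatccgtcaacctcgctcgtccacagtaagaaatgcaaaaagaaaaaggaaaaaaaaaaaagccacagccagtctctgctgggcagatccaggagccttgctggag

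The 2 windows of Hoxa10 held 21 and 12 CpG dinucleotides, that of Hoxa11 15, that of Hoxd10 22, the 2 of Hoxd11 4 and 25, and that of Hoxd8 6. Among the windows of the genes that fell, only the first of Hoxd11 was below that of Hoxd8. RefSeq windows were matched for 22 of the 39 members (24 windows, as Hoxa10 and Hoxd11 have 2 starts each). Their median was 14.5 CpG per window against 7 over all 32851 windows of 300 bases. A CCAAT match was present in 15 of the 24 windows (62.5%, against 37.4% of all windows), a TGATNNAT match in 4 (16.7% against 8.85%), a TATAAA match in 4 (16.7% against 13.6%) and a TTTATNG match in 2 (8.33% against 10.9%). The window of Hoxa11, the second of Hoxa10 and the first of Hoxd11 held no match to any of the 4. These letters describe the windows, and no binding was measured.

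All 5 genes of numbers 10 and 11 that were tested fell from P1 to 2 weeks in limma. The log2 changes were -5.41 ± 0.75 for Hoxd10 (adjusted p = 0.00735), -5.34 ± 0.74 for Hoxc10 (0.00742), -5.28 ± 0.82 for Hoxd11 (0.00989), -5.25 ± 0.65 for Hoxa10 (0.00552) and -5.23 ± 0.78 for Hoxa11 (0.00888). From P1 to 12 weeks the limma estimates were -6.64 ± 0.65 for Hoxa10 (adjusted p = 0.000667) and -5.28 ± 0.82 for Hoxd11 (0.00343). Those of Hoxc10, Hoxa11 and Hoxd10 were -5.25 ± 0.74 (0.00249), -5.23 ± 0.78 (0.00302) and -4.68 ± 0.75 (0.00384). These fitted values depend on the pseudocount of 1 because later pools had few or no reads. Against a floor of 3 reads per library, Hoxd11 was at least 24.2-fold lower at 2 weeks in males and at least 8.34-fold lower in females, and Hoxa11 at least 19.6-fold and at least 9.59-fold lower. Hoxa10 had 135 reads in P1 male and 1 in 2-week male, a ratio whose 95% interval for counting error ended at 0.046. These 5 genes passed the minimum mean only through the E18.5 and P1 pools, so a fall was built into their being tested, and their levels are therefore given as a description. Their median log2 change from P1 to 2 weeks was -5.28, or -4.42 with each pool under 3 reads set at 3 reads, against 0.00 over all 16720 genes tested.

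Markers of kidney moved with them. All 9 kidney genes that could be tested fell from P1 to 2 weeks, and of the 10 listed, 4, 5, 9 and 8 were at 0 in the 2-week male, 2-week female, 12-week male and 12-week female pools. Among the early pools the order differed by gene. P1 male, the pool with the highest kidney sum, also had the highest Hoxa10, Hoxa11, Hoxd10 and Hoxd11, whereas Hoxc10 was highest in P1 female. Pax2, a kidney and urinary tract regulator, had 21.8, 104 and 47.5 normalized counts in the early pools, then 0.89 in 2-week male and none in the others. Of 9 capsule and stromal genes, 6 fell from P1 to 2 weeks, and their sum was 82562 to 110860 in the early pools and 15966 to 33898 later. All 6 skeletal muscle genes fell as well. The part of kidney, muscle or stromal RNA in the Hox values was not tested.

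**Figure D3:**
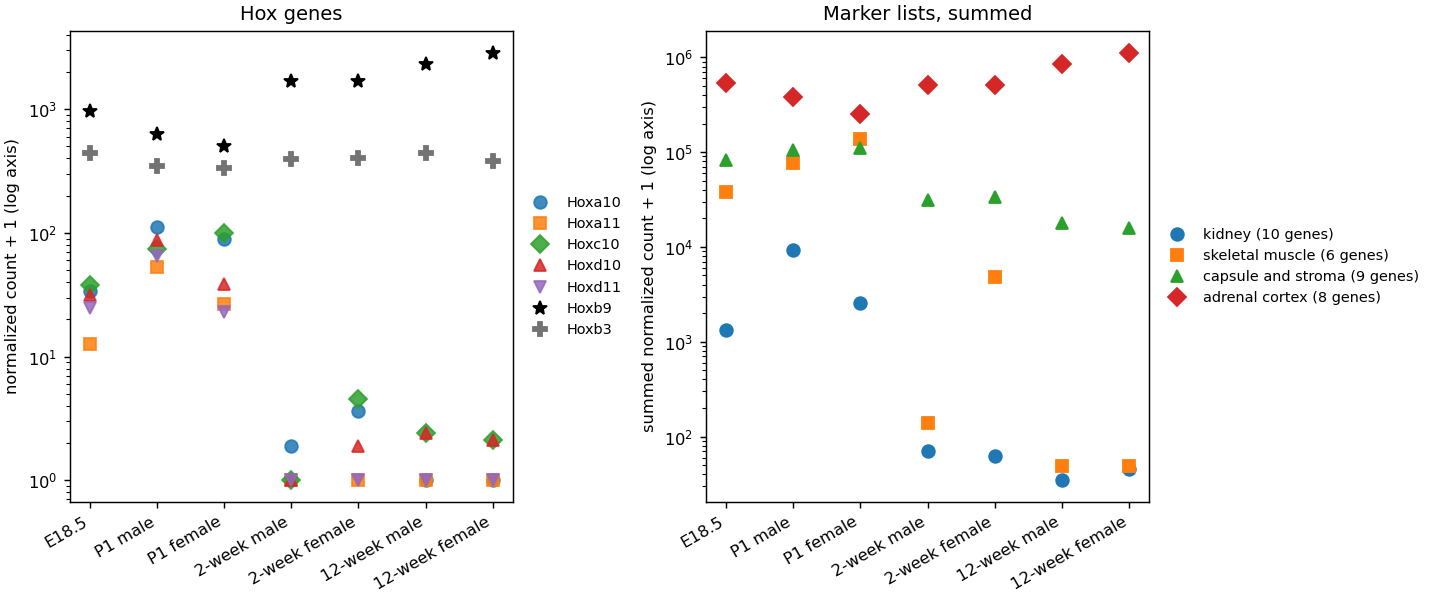
The left panel plots normalized count + 1 on a log axis for 5 genes of numbers 10 and 11 and for Hoxb9 and Hoxb3, and the right panel plots summed marker lists in the same 7 pools. The 5 genes and the kidney sum are high in the 3 early pools and low in the 4 later ones, while Hoxb3 stays between 336 and 445 normalized counts.

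Paralogue group 9 was divided. While Hoxb9 rose, Hoxa9, a gene of trunk and blood progenitors, had 53.8, 112 and 81.7 normalized counts at E18.5, P1 male and P1 female, 17.8 and 22.9 at 2 weeks, and 8.39 and 7.92 at 12 weeks. It fell by 2.19 ± 0.40 on the log2 scale from P1 to 2 weeks (limma adjusted p = 0.0167) and by 3.40 ± 0.40 from P1 to 12 weeks (0.00132). Hoxc9, which specifies thoracic motor neurons, had 21.8, 33.5 and 55.2, then 17.8 and 9.70, then 9.79 and 3.39. It fell by 2.68 ± 0.60 from P1 to 12 weeks (limma adjusted p = 0.0134), and its change from P1 to 2 weeks, -1.64 ± 0.60, was not called (0.116). Its fall to 12 weeks was not called when the P1 female pool was left out. Hoxd9 had 31.1, 94.9 and 47.5, then 26.7 and 22.1, then 18.2 and 43.0. The 12-week female pool thus lay near P1 female, and neither change was called (limma adjusted p = 0.129 and 0.116).

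The other abundant genes, those with a mean of at least 100, lay in groups 2 to 8 and changed less. Hoxb7, whose promoter is widely used to label the ureteric bud, had 370, 331 and 382 normalized counts at E18.5, P1 male and P1 female, 464 and 493 at 2 weeks, and 366 and 523 at 12 weeks. Hoxb3, a hindbrain gene, had 445, 346, 336, 397, 401, 443 and 378 in the same order of pools. Its highest value was 1.33 times its lowest, the narrowest range of the 23 genes over the floor in all 7 pools. Hoxb4, known for its action on blood stem cells, had 178, 128, 160, 157, 163, 148 and 214. For each of these 3 genes the 12-week pools lay on either side of both 2-week pools, and no limma age comparison called them.

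Hoxd8, a trunk gene, had 392 at E18.5, 543 and 530 at P1, 577 and 587 at 2 weeks, and 692 and 643 at 12 weeks. The ages did not overlap, but its log2 change from P1 to 12 weeks was 0.31 ± 0.15 and was not called (limma adjusted p = 0.148). Hoxc8, which patterns the thoracic and brachial region, had 308, 370, 614, 527, 542, 466 and 587, with P1 female the highest. Hoxb2, a hindbrain gene, had 143, 222, 258, 279, 306, 190 and 199. Hoxb8, which acts in myeloid progenitors and in grooming behaviour, had 144, 197, 236, 312, 306, 150 and 289, with the 12-week male pool close to E18.5. Hoxa7 had 73.9, 133, 187, 181, 160, 124 and 112. Hoxb2, Hoxb8 and Hoxa7 thus had their highest values between P1 and 2 weeks, and none was called in an age comparison.

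Hoxb6, which marks lateral plate and trunk mesoderm, had 205, 198 and 181 normalized counts in the early pools and 326, 350, 326 and 370 in the later ones. All later pools were above all early pools. It rose by 0.83 ± 0.19 on the log2 scale from P1 to 2 weeks (limma adjusted p = 0.0324) and by 0.87 ± 0.19 from P1 to 12 weeks (0.0127). Hoxc5 had 119, 90.0 and 110, then 144 and 154, then 186 and 174, and rose by 0.85 ± 0.23 from P1 to 12 weeks (limma adjusted p = 0.0281). Hoxd4, a retinoic acid responsive gene of the hindbrain, had 113, 56.5 and 33.1, then 62.3 and 52.1, then 113 and 115. P1 and 2 weeks overlapped, and both 12-week pools were close to E18.5. The rise from P1 to 12 weeks was 1.38 ± 0.32 (limma adjusted p = 0.0149), and the change from P1 to 2 weeks was not called (0.445). Hoxc5 overlaps Hoxc6, Hoxc8, Hoxc9 and Hoxc10 in the GENCODE annotation, Hoxd4 overlaps Hoxd3, and Hoxa3 overlaps Hoxa4, Hoxa5 and Hoxa6, all on the same strand, so the counts of these genes are uncertain where models share bases.

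Hoxc6, a brachial and thoracic gene, had 607 at E18.5, 358 and 423 at P1, 279 and 344 at 2 weeks, and 498 and 518 at 12 weeks. It was the 1 member called between 2 and 12 weeks, with a rise of 0.71 ± 0.17 (limma adjusted p = 0.0402). Hoxc4 had 132, 141 and 172 in the early pools and 73.8 to 109 later. All early pools were above all later ones, but the change from P1 to 2 weeks of -0.79 ± 0.25 was not called (limma adjusted p = 0.0778). Hoxa3, which is needed for the thymus and parathyroid, had 138, 120, 139, 87.2, 77.6, 150 and 63.4. Its 2 pools of 12 weeks were the highest and the lowest of all.

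Less abundant genes of the Hoxa cluster fell with age. Hoxa2, which specifies the skeleton of the pharyngeal arches, had 50.4, 77.7 and 65.1 normalized counts in the early pools, 29.4 and 37.9 at 2 weeks, and 21.0 and 7.92 at 12 weeks. Its change from P1 to 12 weeks was -2.37 ± 0.48 (limma adjusted p = 0.00932). Hoxa4 and Hoxa6 fell by 1.40 ± 0.43 and 1.52 ± 0.47 over the same span (limma adjusted p = 0.0401 for each), and both had at most 11.3 normalized counts at 12 weeks. The falls of Hoxa2, Hoxa4 and Hoxa6 were not called when the P1 female pool was left out. Hoxa5, needed for lung development, had 64.3 to 125 in the 7 pools and was not called. Of 10 Hoxa genes tested, none rose and 6 fell from P1 to 12 weeks (median log2 change -1.46). Of 8 Hoxb genes, 2 rose and none fell (median 0.31). Of 6 Hoxc genes, 1 rose and 2 fell (median -0.26), and of 6 Hoxd genes, 1 rose and 2 fell (median -0.72). The median over all genes tested was -0.03, and 17.6% of all genes rose and 23.5% fell. These counts and medians include Hoxa10, Hoxa11, Hoxc10, Hoxd10 and Hoxd11, which were tested only because of their early levels. Both fallers of Hoxd, 1 of the 2 of Hoxc and 2 of the 6 of Hoxa were among them.

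Over all members, 2 of 30 rose and 6 fell from P1 to 2 weeks, where 5.89% of all genes tested rose and 10.5% fell. From P1 to 12 weeks 4 rose and 10 fell, where 17.6% of all genes rose and 23.5% fell. From 2 to 12 weeks 1 rose and none fell, where 5.4% of all genes rose and 9.89% fell, and 9 members had an unadjusted p under 0.05. As shares of the members these were 6.67% and 20.0%, 13.3% and 33.3%, and 3.33% and 0%. The share of members that rose was near that of all genes in the first comparison and below it in the others, and the fallers in the first and longest comparisons included the 5 genes of numbers 10 and 11. Without them, 2 of 25 rose and 1 fell from P1 to 2 weeks, and 4 rose and 5 fell from P1 to 12 weeks. The 3 comparisons share pools and are not independent of each other.

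The calls from P1 to 2 weeks became fewer when single pools were left out, over all genes as well as over the Hox genes. None of the members was called without P1 male, P1 female or 2-week male, and 0.0120%, 0.167% and 1.20% of all genes were called in those fits, against 16.4% with all pools. Without 2-week female 5 members and 4.49% of all genes were called. In those fits the lone pool of an age was assumed to vary as the others did, and the log2 change of Hoxb9 stayed between 1.35 and 1.82. From P1 to 12 weeks 8 members were called without P1 male and 7 without P1 female, the library with Y-linked reads, where 21.5% and 19.2% of all genes were called, against 41.2% with all pools. Hoxb9, Hoxa9 and the 5 genes of numbers 10 and 11 were among them in both cases, and no other member was called without P1 female. The falls of Hoxa2, Hoxa4, Hoxa6 and Hoxc9 were thus not called without P1 female. Hoxb6, Hoxc5 and Hoxd4 were not called without either P1 pool. The call of Hoxc6 between 2 and 12 weeks was lost without P1 male, P1 female, 2-week male, 2-week female or 12-week male. With libraries scaled to equal totals, which moved the median change of all genes between 2 and 12 weeks from -0.03 to -0.20, Hoxc6 was not called and Hoxa4 and Hoxb2 fell.

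**Figure D4:**
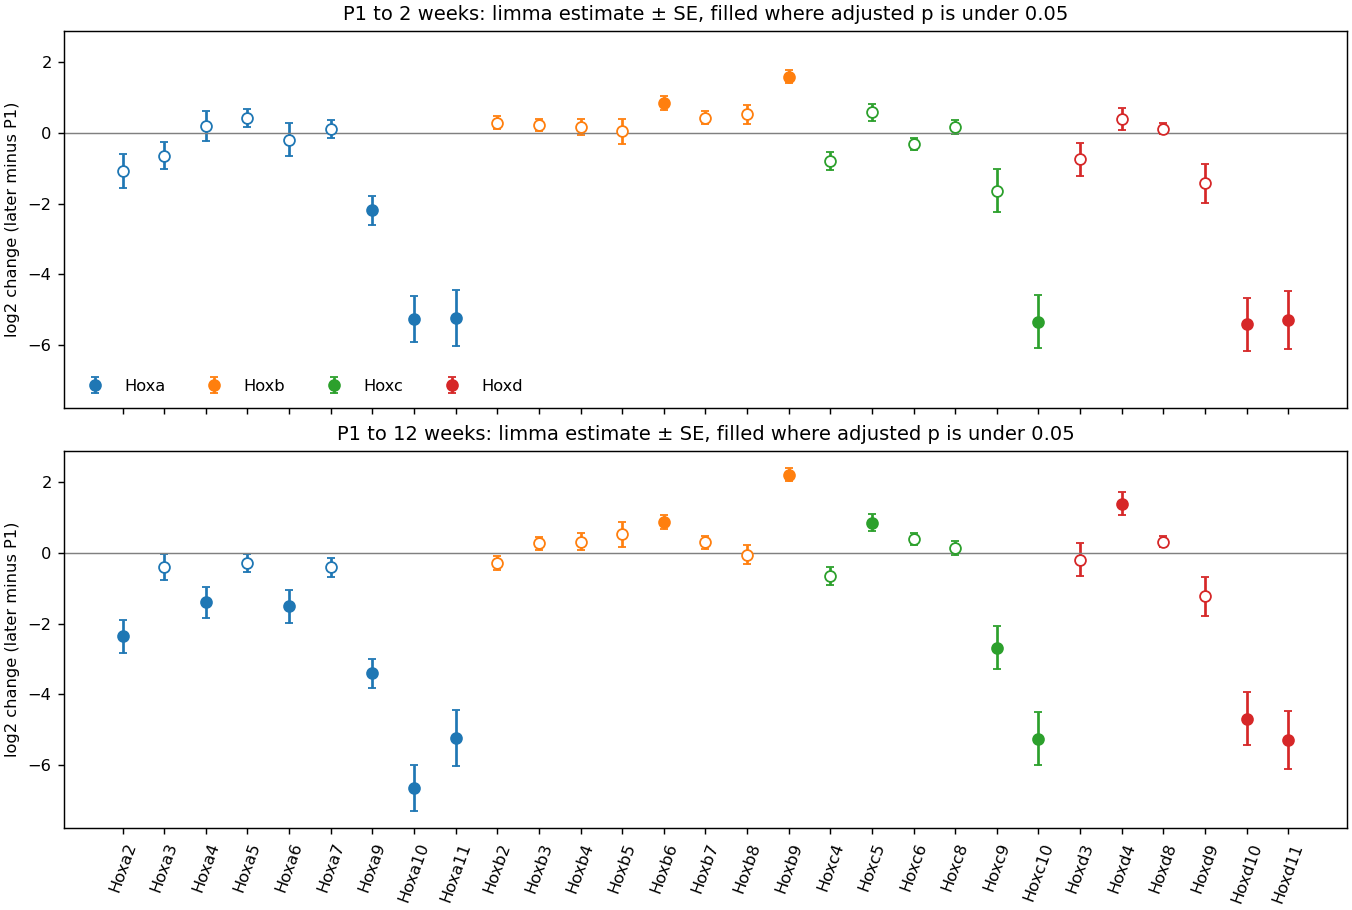
Points give the limma log2 change ± SE of the tested Hox genes in cluster order from P1 to 2 weeks (top) and from P1 to 12 weeks (bottom), filled where the adjusted p was under 0.05. Genes of numbers 10 and 11 lie between -4.68 and -6.64, and Hoxb9 is the highest point of both panels at 1.58 and 2.20.

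Birth itself could be described only by setting single pools against each other, with exact binomial 95% intervals that cover counting error and not the spread between animals. The reads carry no molecular identifiers named in the labels and may repeat molecules. Genes were called 2-fold apart on the log2(normalized count + 1) scale. From E18.5 to P1 male, 6 members were higher by this measure, where 8.4% of all genes were 2-fold apart in either direction. They were Hoxa9, Hoxa10, Hoxa11, Hoxd9, Hoxd10 and Hoxd11, genes of numbers 9 to 11 in 2 clusters. Hoxa11 and Hoxd11 reached the minimum mean only with the P1 male pool, so their place in this count was partly built in. Hoxc10, of the Hoxc cluster, missed the limit narrowly, at 1.99 times its E18.5 level (1.37 to 2.93). None was called lower, though Hoxd4 missed the limit narrowly, at 0.498 of its E18.5 level without the added 1. Hoxa11 was 4.45 times its E18.5 level (2.47 to 8.60), Hoxa10 3.37 times (2.35 to 4.95) and Hoxd9 3.05 times (2.09 to 4.55). The kidney sum was 1342 and 9352 in the same pools, and its part was not tested.

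From E18.5 to P1 female, 7 members were 2-fold apart, where 13.2% of all genes were. Hoxa4, Hoxa7, Hoxa10, Hoxa11, Hoxc9 and Hoxc10 were higher and Hoxd4 was lower. Hoxd11 was not higher there, with a ratio of 0.938 (0.501 to 1.73), and Hoxd10 had a ratio of 1.24 (0.753 to 2.04). Hoxa10 and Hoxa11 were thus at least 2-fold higher in both P1 pools. Hoxb9 was below E18.5 in both, at 0.646 of its E18.5 level in P1 male (0.589 to 0.708) and 0.518 in P1 female (0.464 to 0.578). Hoxc6 was also lower in both, at 0.590 (0.523 to 0.665) and 0.696 (0.613 to 0.789), and Hoxd4 at 0.498 (0.367 to 0.670) and 0.292 (0.190 to 0.436).

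No Hox gene was called between the sexes. None of the 30 members passed with age as a block, none had an unadjusted p under 0.05, and edgeR's quasi-likelihood test also called none, where limma called 0.00598% of all genes. The 4 Y-linked genes, with log2 differences of 6.97 to 8.06, were not called either (limma adjusted p = 0.999). The P1 female pool held 1273 normalized counts over those 4 genes, and the part of its Y-linked reads in the sex comparison and in the ratios at P1 was not tested. In single pools 4 members were 2-fold apart at P1, where 6.78% of all genes were, with Hoxa11, Hoxd10 and Hoxd11 higher in male and Hoxa4 lower. Hoxa11 and Hoxd11 reached the minimum mean only with the P1 male pool, so their count was partly built in. At 2 weeks 1 member was 2-fold apart, where 4.24% of all genes were. This was Hoxc10, with 0 reads in male and 4 in female, which is at least 1.32-fold lower in male against the floor of 3 reads and within counting error. At 12 weeks 4 were, where 8.83% of all genes were, with Hoxa2, Hoxa3 and Hoxc9 higher in male and Hoxd9 lower. Hoxc9 rested on 7 and 3 reads (ratio 2.88, 0.658 to 17.3).

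At 12 weeks the male pool was at 0.519 of the female level for Hoxb8 (0.410 to 0.652), 0.506 for Hoxb5 (0.346 to 0.728) and 0.701 for Hoxb7 (0.600 to 0.817). For Hoxa3, in contrast, it was 2.36 times the female level (1.69 to 3.32). At 2 weeks Hoxc4 and Hoxc6 were apart beyond counting error, at 0.680 (0.509 to 0.906) and 0.812 (0.697 to 0.944) of the female level. Whether the ages differed in this was not tested. Hoxc8 was lower in male at P1 (ratio 0.603, 0.531 to 0.684) and at 12 weeks (0.793, 0.689 to 0.912), and its interval at 2 weeks included 1 (0.972, 0.867 to 1.09).

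**Figure D5:**
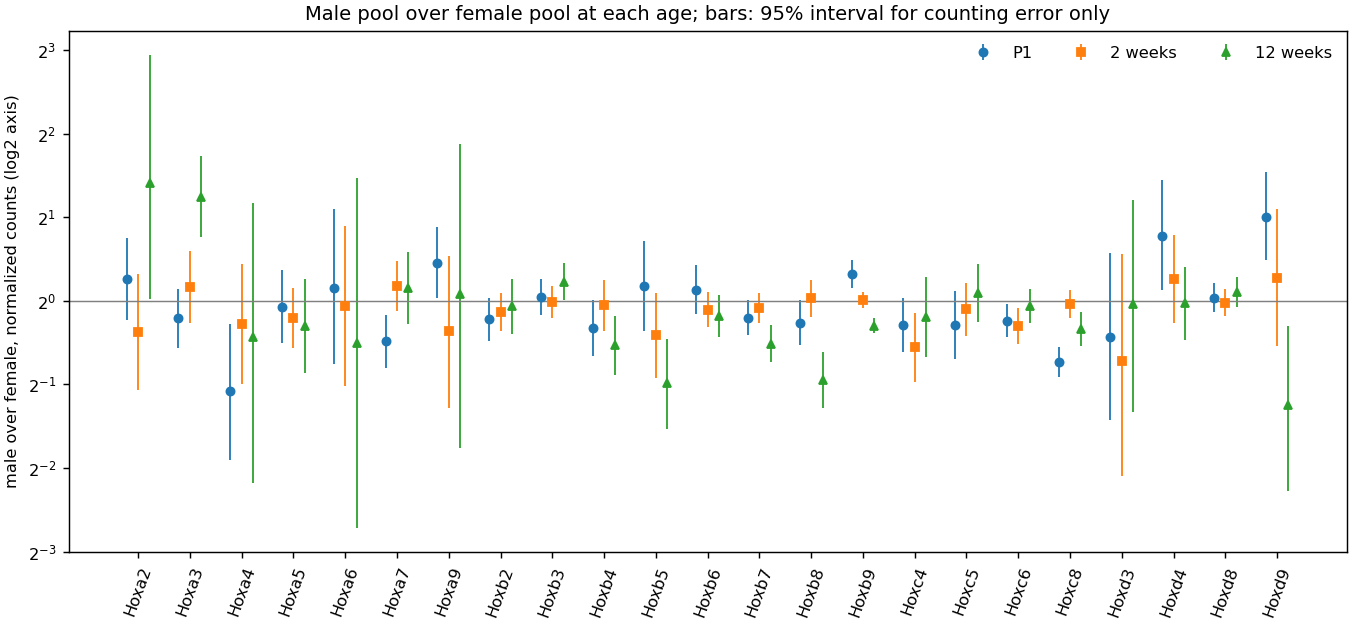
Points give the male pool over the female pool at P1, 2 weeks and 12 weeks on a log2 axis for the 23 Hox genes over the floor in all 7 pools, with 95% intervals for counting error only. Most 2-week points lie near 1, and Hoxb9 moves from 1.25 at P1 to 0.812 at 12 weeks.

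Partners and regulators of Hox genes were measured from lists of known genes. Of 9 TALE homeodomain cofactors, which bind DNA together with Hox proteins, Pbx3 rose from P1 to 2 weeks (log2 1.14 ± 0.17, limma adjusted p = 0.00886) and Pbx3 and Meis2 rose from P1 to 12 weeks (1.28 ± 0.17 and 0.93 ± 0.15, limma adjusted p = 0.00200 and 0.00356). Pbx2 fell by 0.61 ± 0.15 over that span, and none changed between 2 and 12 weeks. The list's summed level was 14611 to 17048 in the early pools and 18152 to 20540 later.

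Of 19 chromatin regulators of Hox genes, 18 were tested. Polycomb complexes keep Hox genes silent where they should not be active, and trithorax complexes oppose them. From P1 to 12 weeks Bmi1 and Cbx7, subunits of Polycomb complex 1, rose by 1.36 ± 0.14 and 2.22 ± 0.24. Over the same span Ezh2, the methyltransferase of Polycomb complex 2, fell by 1.57 ± 0.16, and Pcgf2, Cbx2, Phc1, Phc2 and the demethylase Kdm6b also fell. Bmi1 had 861 to 911 normalized counts in the early pools and 2213 and 2283 at 12 weeks, whereas Ezh2 had 786 to 901 and then 284 and 282. Eed, Suz12, Ring1, Rnf2, the trithorax methyltransferase Kmt2a and Men1 were not called in any age comparison. From P1 to 2 weeks Cbx7 rose by 1.06 ± 0.24 and Pcgf2 fell by 1.20 ± 0.24, and from 2 to 12 weeks 2 rose (Bmi1 and Cbx7) and 3 fell (Ezh2, Cbx2 and Kdm6b).

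Of the genes that start Hox expression in the embryo, Cdx1 and Cdx2 had no read, Cdx4 had 1 read in all, and so did Evx1 and Evx2, the homeobox genes beside the Hoxa and Hoxd clusters. Gdf11, a signal that moves the trunk to tail transition, fell by 1.47 ± 0.33 from P1 to 12 weeks (limma adjusted p = 0.0136). In the retinoic acid route, which activates low-numbered Hox genes, 7 of 8 genes were tested. Rara, a receptor, and Cyp26b1, which degrades retinoic acid, fell from P1 to 12 weeks by 1.53 ± 0.19 and 1.93 ± 0.35. Aldh1a1, which makes it, rose by 2.80 ± 0.49. Rarb, Rarg, Aldh1a2 and Aldh1a3 were not called.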

How the data were processed

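RNA of 7 pooled adrenal libraries was measured by RNA-seq. The authors deposited normalized counts per gene symbol, a signal in which every value was a whole number of reads divided by 1 size factor per library (100% of values within 0.01 reads, largest deviation 0.000276). These factors matched median-ratio size factors computed from 18040 genes read in every library. The submitters' processing notes name CASAVA 1.8.2, HISAT2 2.1.0, HTSeq 0.9.1, DESeq2 2.11.40.6 and mm10. Which annotation was used and whether counting used strand are not given in the sources used here. Depth was 15184210 to 23551289 reads in genes.

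Symbols were matched to GENCODE M21 (GRCm38) for coordinates and to RefSeq (GRCm38.p6) for promoter and miRNA sequences. Transcript lengths are those of GENCODE transcripts matched to RefSeq accessions, for all 39 members. Genes with a mean of at least 10 (16720) entered limma 3.58.1 under R 4.3.3 (two-sided, lmFit and then eBayes with trend) on log2(normalized count + 1), a scale that understates changes of low genes, over the 6 postnatal libraries with age and sex terms. E18.5, whose sex was not determined, stayed out of the fits. P-values were Benjamini-Hochberg adjusted over all genes, with a threshold of 0.05. Single libraries were compared at 2-fold, with exact binomial 95% intervals on recovered reads. Scripts were tested on simulated data, with 200 of 16720 genes changed. At the threshold of 0.05, 13.0% of the limma calls from P1 to 2 weeks were false there. This share was 5.59% from 2 to 12 weeks, 12.6% from P1 to 12 weeks and 14.5% between the sexes. More limma calls may thus be false than the threshold states. In each age comparison a larger part of all genes was called here than was changed in the simulation. The simulated shares are therefore no estimate of the false calls in these data. Alternatives included edgeR 4.0.16 on recovered reads.

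Some genes, 1 member among them, are counted but not reported here. The other members were named, with values in every library for means of at least 100. Statistics were given for the 5 largest called rises and falls of each age comparison, or for all where fewer were called. Statistics of further members were chosen after their values were seen. Members, gene lists (Hox cofactors, regulators, retinoic acid route, noncoding genes, cell and tissue markers and Y-linked genes) and tests were chosen with earlier results of these data known.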

Additional observations from a re-analysis of the deposited data

Results flagged for a closer look

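The male to female ratio pointed in opposite directions at 2 ages, each time beyond counting error, for 4 values. Hoxb9 was 1.25 times as high in the male pool at P1 and 0.812 times at 12 weeks, where its normalized counts were 628 and 503 and then 2325 and 2865. Hoxd9 was 2.0 times as high in the male pool at P1 and 0.423 times at 12 weeks, on 116 and 43 reads and then 13 and 38. The summed level of paralogue group 9 followed its main member, with 1.26 at P1 and 0.809 at 12 weeks. The sum of genes of numbers 10 and 11 was 1.43 times as high in the male pool at P1 and 0.126 times at 2 weeks, the latter from 1 read against 8. Each ratio compares 1 pool with 1 pool, and the difference between ages was not tested. The P1 female pool, which enters all 4 values at P1, also held Y-linked reads (1273 normalized counts over 4 genes), and the kidney sum was 9352 in P1 male against 2548 in P1 female. Their part in these ratios was not tested.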

How the results depend on the processing

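Calls were recomputed under other pseudocounts, filters, scalings, tools and fits and without each pool. Among 17 values of named genes, no direction changed, and all 17 were called by edgeR with TMM, with either pseudocount and without the block. Most of these values were falls of the genes of numbers 10 and 11, whose direction was built into their being tested. Their steadiness is therefore no support for the falls. With no filter, 7 of the 17 values were as before and 10 were weaker. From P1 to 2 weeks 8 members were called, with 2 when a mean of at least 50 was required, 0 with no filter (0% of all genes then passed) and 0 to 11 when 1 pool was left out. From 2 to 12 weeks 1 was called, with 0 with no filter, 2 without a trend (Hoxa4 and Hoxa6, both lower), 2 with equal totals, 2 without the block and 0 to 2 when 1 pool was left out. From P1 to 12 weeks 14 were called, with 4 at a mean of at least 50, 9 with no filter and 7 to 12 when 1 pool was left out. A mean of at least 50 removes the genes of numbers 9 to 11 other than Hoxb9 from the test. Of members 2-fold apart, E18.5 to P1 male gave 0 at a mean of at least 50, 14 at 1.5-fold and 1 at 4-fold, and E18.5 to P1 female gave 2, 13 and 0. Male against female at P1 gave 2 with a pseudocount of 5, 0 at a mean of at least 50, 8 at 1.5-fold and 0 at 4-fold. At 2 weeks it gave 3 with a pseudocount of 0.1, 0 with 5, 0 at a mean of at least 50 and 6 at 1.5-fold, and at 12 weeks 1, 7 and 0 at a mean of at least 50, 1.5-fold and 4-fold. The cause of these differences was otherwise not tested. The sum of the Hoxc cluster in 12-week female over E18.5 was 0.18 on the log2 scale and -0.0031 when reads were scaled to library totals. Of the 10 highest genes per kb, 9 were shared with the order by raw counts and 9 with that by exon union length, the latter chosen after seeing the data. Depth limits the low genes, since 3 reads equal 2.45 to 4.19 normalized counts and lower levels could not be told from none, and 1 pool per group limits every p-value. No paired analysis was possible because the pools carry no replicate numbers.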

Other observations

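The noncoding genes of the Hox clusters were low. Of 17 in the table, 3 had a mean of at least 10. Hoxb5os, an antisense gene beside Hoxb5 and Hoxb6, had 9.24, 14.7 and 28.7 normalized counts at E18.5, P1 male and P1 female, 39.1 and 49.4 at 2 weeks, and 67.1 and 66.8 at 12 weeks. Its rise from P1 to 12 weeks was 1.65 ± 0.37 on the log2 scale (limma adjusted p = 0.0140), and since the counting's use of strand is not given in the sources used here, reads of Hoxb5os and of Hoxb5 or Hoxb6 cannot be told apart. Mira, which overlaps Hoxa7, had 90.5 to 144 and did not pass in any age comparison (log2 0.02 ± 0.28 from P1 to 12 weeks). Hottip, a long noncoding RNA at the far end of the Hoxa cluster, had no read, and Hotair, of the Hoxc cluster, had at most 1 read per pool. Hoxa11os, opposite Hoxa11, had 2.52, 13.1 and 5.52 normalized counts in the early pools and none later.

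Reads at the locus Mir196a-1, which lies beside Hoxb9, were 10.9, 8.18 and 3.31 normalized counts in the early pools, 17.8 and 16.8 at 2 weeks and 28.0 and 15.8 at 12 weeks, a rise from P1 to 12 weeks of 1.81 ± 0.51 (limma adjusted p = 0.0293). Reads at Mir10a, between Hoxb4 and Hoxb5, ranged from 0 to 11.3. Such reads come from longer transcripts, and mature miRNAs were not measured here. The mature forms are shown, with the seed (bases 2 to 8) in capitals, because those of miR-10 share 1 seed and those of miR-196 another. Mir615, a miRNA gene of the Hoxc cluster, had 1 read over the 7 pools.
miR-196a-5p: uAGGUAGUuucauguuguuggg
miR-196b-5p: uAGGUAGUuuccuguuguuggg
miR-10a-5p: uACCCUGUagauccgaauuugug
miR-10b-5p: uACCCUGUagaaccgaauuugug

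Of 8 cortical genes, Star and Hsd3b1 rose from P1 to 12 weeks and none fell. Of 8 chromaffin genes, Chgb and Slc18a1 rose and Pnmt and Phox2a fell. All 5 liver genes and all 5 exocrine pancreas genes that could be tested fell over that span. Of the remaining marker lists, all 5 adipocyte genes rose from P1 to 2 weeks and to 12 weeks, and their sum was 2881 to 3002 in the early pools and 25376 to 45114 later. Of 5 endothelial genes, 2 rose and 1 fell from P1 to 12 weeks. Of 5 Schwann cell genes, 4 fell, and of 4 leukocyte genes, 2 rose. Their part in the Hox values was not tested.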
